A study of Mus musculus with 3 samples.

Results

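Heme synthesis and breakdown were followed through 9 genes in the liver of mice fed 3 diets. The genes were the synthesis enzymes Alas1, Alad, Uros, Urod, Cpox, Ppox and Fech and the breakdown enzymes Hmox1 and Blvrb. They were chosen by name as enzymes of this pathway, out of 18193 genes named by the array, and every probe set whose annotation names only one of them was used, 20 probe sets in all. The mice were male C57BL/6J of 3 groups. HF+SFC mice ate a high-fat diet with the iron supplement sodium ferrous citrate (0.023% of diet weight), HF mice ate that diet without the supplement, and Control mice ate a low-fat diet. Fat supplied 60% of energy in both high-fat diets and 10% in the Control diet. By the study's methods feeding began at 6 weeks of age and lasted 15 weeks, and tissue was collected after a short fast. The age in the labels, 21 months, cannot be squared with these times and plays no part here.

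Each group was 1 array on which, by the study's account, material of all its mice had been mixed, so that there were 3 arrays and no replicates. No p-value can be given for any difference below, and differences between animals of a group cannot be seen. Each difference is one between 2 pools. The HF+SFC diet was compared with HF to see what iron adds to a high-fat diet, and HF with Control to see what the high-fat diet itself went with. By the study's account the Control diet also held more sucrose, and HF mice took in more energy than Control mice. HF over Control is therefore not a comparison of fat alone. No group received iron with the control diet.

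Heme is an iron-containing porphyrin that serves cytochromes, catalase and the respiratory chain, and liver makes much of it for its cytochrome P450 enzymes. Synthesis begins in the mitochondrion with ALAS1, the rate-limiting step in liver, which heme itself holds down. It continues in the cytosol and ends again in the mitochondrion, where ferrochelatase (FECH) inserts ferrous iron. Breakdown by heme oxygenase releases the iron together with carbon monoxide and biliverdin, which biliverdin reductases turn into bilirubin.

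The signal of each gene, an intensity on a linear scale, was read mainly through its brightest probe set, and a probe set counted as kept if its mean log2 signal over the arrays lay in the upper 50%, at a signal of 76.9 or more. All 9 members were kept, and 16 of their 20 probe sets. Over 22519 kept probe sets the correlation of log2 signals was 0.983 between HF+SFC and HF, 0.967 between HF and Control, and 0.968 between HF+SFC and Control. Between kept probe sets of one gene the log2 ratios had an SD of 0.33 in HF+SFC over HF, 0.35 in HF over Control and 0.36 in HF+SFC over Control (5020 genes), and this spread is the only error these arrays give. In the upper 25% of signal, where the brightest probe sets of all 9 members lie, the SDs of these comparisons were 0.17, 0.20 and 0.20 (2354 genes). The hepatocyte markers were bright, Alb at 52202, 50644 and 54077 in HF+SFC, HF and Control. Their median log2 ratios were 0.03 for HF+SFC over HF and -0.09 for HF over Control. Stellate cell markers had medians of -0.86 and 1.01 in these comparisons, and endothelial markers -0.22 and 0.31. Whole liver was measured, so that fewer cells of a type and less RNA per cell cannot be told apart.

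No member reached 1.5-fold, the threshold of the study, in its brightest probe set. For HF+SFC over HF, 0 of 9 members were at least 1.5-fold higher and 0 of 9 lower, against 2.88% and 5.33% of all 11341 kept genes. In HF over Control 0 of 9 were higher and 0 of 9 lower, against 11.3% and 5.84% of all kept genes. In HF+SFC over Control 0 of 9 were higher and 0 of 9 lower, against 9.2% and 6.88%. With 9 genes, counts of 0 lie near such shares. These shares include genes dimmer than the members. In the upper 25% of signal, 39 of 6834 genes were higher and 76 lower in HF+SFC over HF. There 444 were higher and 283 lower in HF over Control, and 410 and 306 in HF+SFC over Control. The background of HF+SFC over HF depended on scaling, with 327 genes higher and 605 lower as deposited and 452 higher and 456 lower after quantile normalization. The median log2 ratio of the members was -0.03 in HF+SFC over HF, 0.19 in HF over Control and 0.07 in HF+SFC over Control, beside -0.01, 0.03 and 0.02 for all kept genes.

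The brightest and the dimmest array of a member differed by 1.03-fold for Urod, the least, and by 1.47-fold for Alas1, the most. The median of this range was 1.14-fold over the members and 1.29-fold over all kept genes. The kept genes include dimmer ones, whose ratios spread more, and the range was not taken over genes of like signal. For 6 of the 9 members the highest signal was in HF, for 2 in HF+SFC and for 1, Alas1, in Control. The lowest signal was in Control for 6 members, in HF for 2 and in HF+SFC for 1. These orders, by the brightest probe sets, rest partly on small differences and were not counted over all kept genes. Of all kept genes, 53.1% were above 0 in HF over Control and 48.8% in HF+SFC over HF.

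**Figure D1:**
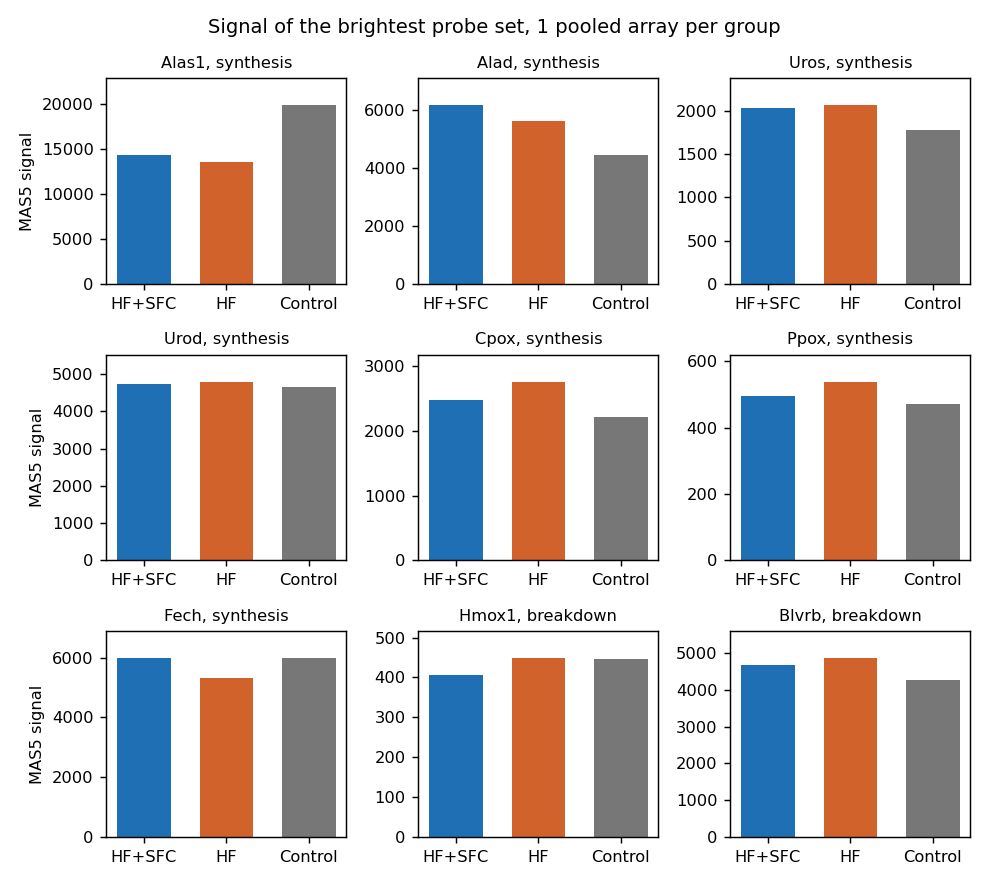
MAS5 signal (y axis, linear from 0) of the brightest probe set of each gene in HF+SFC, HF and Control (x axis), 1 pooled array per group and therefore no error bars. Alas1 stands highest in Control, and the range over the 3 arrays is 1.03-fold for Urod and 1.47-fold for Alas1.

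Alas1, the rate-limiting enzyme, which joins glycine and succinyl-CoA to aminolevulinate, was the member furthest from 0 in HF over Control. Its brightest probe set had a signal of 14342 in HF+SFC, 13558 in HF and 19892 in Control. It was thus 1.47-fold lower in HF than in Control (log2 ratio -0.55), just inside the threshold, and 6.59% of all kept genes had a lower ratio. Its other probe set, whose suffix marks probes that can match other transcripts, had a signal of 2822 in HF+SFC, 2260 in HF and 5102 in Control. There the gene was 2.26-fold lower in HF than in Control (log2 ratio -1.18). Both probe sets were lower in both high-fat pools than in Control, and they differed from each other in the size of the difference. Taking the median of both, the log2 ratio of Alas1 was -0.86 in HF over Control and -0.66 in HF+SFC over Control, past 1.5-fold in each.

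With iron, Alas1 lay slightly above HF. Relative to HF, its probe sets in HF+SFC stood at 0.08 and 0.32 on the log2 scale, both above 0. The first lies within the SD between probe sets, and the second within that of all kept probe sets (0.33) but not that of the upper 25% (0.17). In HF+SFC over Control they stood at -0.47 and -0.85. In either probe set the Alas1 signal in HF+SFC therefore lay nearer to HF than to Control.

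Alas1 is known in mouse to follow the circadian clock and feeding, and clock genes differed between the same pools. In HF livers 4 of 11 kept core clock genes exceeded Control by 1.5-fold or more and 3 fell short of it by as much, with Per3 3.89-fold higher (the lowest of its 5 probe sets at 0.37 on the log2 scale), Dbp 3.84-fold higher and Arntl 3.03-fold lower by its brightest probe set (-1.60, against 0.33 by its other kept probe set). With iron, HF+SFC over HF, 0 of 11 were beyond 1.5-fold and their median was 0.09. Per1 was the lowest there at -0.45 and Arntl the highest at 0.49 (-0.06 by its other probe set). For HF+SFC over Control 5 were higher, Cry2 (0.95) besides the 4 of HF over Control, and 3 lower. The part of the clock in the Alas1 difference was not tested.

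Alad, which condenses aminolevulinate to porphobilinogen, had the highest ratio of the members in HF over Control. Its brightest probe set had a signal of 6170 in HF+SFC, 5613 in HF and 4448 in Control. HF was 1.26-fold above Control (log2 ratio 0.34), and HF+SFC 1.39-fold above Control (0.47) and 1.10-fold above HF (0.14). Its other probe set had 338 in HF+SFC, 371 in HF and 351 in Control, with log2 ratios of -0.14 for HF+SFC over HF and 0.08 for HF over Control. The order of the 3 diets in Alad therefore rested on the brighter probe set.

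Alas1 and Alad, consecutive enzymes at the start of the pathway, thus had the lowest and the highest ratio of the members in HF over Control and in HF+SFC over Control, by their brightest probe sets. Their promoter windows are shown for this reason, each of 300 bases from 250 before to 50 after an annotated start (RefSeq, GRCm38.p6, both on the minus strand, 5′ to 3′), Alas1 at chr9:106247681-106247980 and Alad at chr4:62519860-62520159. Capitals mark NRF1 motifs (GCGCANGCG, either strand) in Alas1 and the E-box (CACGTG, which clock factors bind) in Alad.
Alas1: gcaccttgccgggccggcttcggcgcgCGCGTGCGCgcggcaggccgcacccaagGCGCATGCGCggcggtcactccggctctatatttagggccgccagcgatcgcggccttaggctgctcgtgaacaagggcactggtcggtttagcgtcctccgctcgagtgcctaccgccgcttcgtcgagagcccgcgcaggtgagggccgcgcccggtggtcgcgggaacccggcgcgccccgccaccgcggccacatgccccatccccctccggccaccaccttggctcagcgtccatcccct
Alad: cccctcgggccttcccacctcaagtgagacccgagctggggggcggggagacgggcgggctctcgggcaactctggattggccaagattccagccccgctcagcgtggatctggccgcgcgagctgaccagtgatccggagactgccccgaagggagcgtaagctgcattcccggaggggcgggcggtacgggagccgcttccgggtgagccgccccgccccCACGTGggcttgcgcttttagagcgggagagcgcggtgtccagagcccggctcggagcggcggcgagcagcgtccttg

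NRF1 here is nuclear respiratory factor 1, which drives many nuclear genes of mitochondria, and its motif was held by 6.25% of all 32851 windows of this length. The Alas1 window held 3 matches, 2 of which overlap. The same letters lie in the other Alas1 window, which overlaps this one. The E-box was found in 7.15% of all windows and in 4 of the 11 windows of members. These belonged to 3 of the 7 members that had a window, Alad, Uros and Urod, but not to Alas1. Uros also held 1 NRF1 match. The antioxidant response element (TGACNNNGC), the motif of NRF2, was held by 12.4% of all windows and the cAMP response element (TGACGTCA) by 1.79%. Each was found in 0 of the 7 members, and so in none of their 11 windows. Hmox1 and Fech had no window in the table. A match describes the sequence only and shows no binding.

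The middle enzymes of the pathway lay close together. Uros, which closes the porphyrin ring to uroporphyrinogen III, had a signal of 2030 in HF+SFC, 2066 in HF and 1774 in Control, and the log2 ratios were -0.03 for HF+SFC over HF and 0.22 for HF over Control. Urod, which removes carboxyl groups from that ring, had 4725 in HF+SFC, 4793 in HF and 4639 in Control. The suffix of this Urod probe set marks probes that can match other transcripts. Its second probe set had 1267 in HF+SFC, 1216 in HF and 1301 in Control. The sign of its ratios differed between the probe sets in every comparison, and no Urod ratio exceeded 0.10 in size. Urod was the most level member.

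Cpox, coproporphyrinogen oxidase of the mitochondrial intermembrane space, was read by 3 kept probe sets that did not go one way. The brightest had a signal of 2479 in HF+SFC, 2757 in HF and 2218 in Control. The second had 1156 in HF+SFC, 1113 in HF and 1388 in Control, and the dimmest 132 in HF+SFC, 99.1 in HF and 157 in Control. HF over Control was 0.31 in the brightest and -0.32 and -0.66 in the others. The brightest put HF highest of the 3 pools and the others put it lowest, so that the direction of Cpox is not settled by these arrays. The HF+SFC over HF values were -0.15, 0.05 and 0.41 in the same order of probe sets.

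Ppox, protoporphyrinogen oxidase, makes protoporphyrin IX in the mitochondrial inner membrane. Its brightest probe set had a signal of 494 in HF+SFC, 538 in HF and 471 in Control, with log2 ratios of -0.12 for HF+SFC over HF and 0.19 for HF over Control. The other probe sets lay below the kept level. One had 69.2 in HF+SFC, 67.6 in HF and 30.0 in Control. The dimmest had 54.8 in HF+SFC, 21.5 in HF and 2.97 in Control. As signals this low differ widely between arrays for most probe sets, no direction of Ppox is read from them.

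Fech, the ferrochelatase that completes heme and itself carries an iron–sulfur cluster, had 3 kept probe sets. The brightest had a signal of 5984 in HF+SFC, 5325 in HF and 5974 in Control, the second 5777 in HF+SFC, 5459 in HF and 5686 in Control, and the third 3687 in HF+SFC, 3614 in HF and 3452 in Control. HF+SFC was above HF in each of them, at 0.17, 0.08 and 0.03 on the log2 scale. Fech had the highest HF+SFC over HF ratio of the 9 members by its brightest probe set, and it was 1.12-fold. The suffix of that probe set marks probes that can match other transcripts. Without probe sets of such a suffix Fech stood at 0.08, below Alad at 0.14. HF over Control was -0.17, -0.06 and 0.07. A further Fech probe set, at 5.20 in HF+SFC, 12.1 in HF and 4.98 in Control, was too dim to read.

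On the breakdown side both enzymes had a single probe set. Hmox1, the inducible heme oxygenase, had a signal of 407 in HF+SFC, 448 in HF and 446 in Control. HF+SFC was 1.10-fold below HF and 1.10-fold below Control, and HF was level with Control (log2 ratio 0.01, below 0 after quantile, median and lowess scaling). Blvrb, which reduces biliverdin and flavins, had 4669 in HF+SFC, 4868 in HF and 4279 in Control, with log2 ratios of -0.06 for HF+SFC over HF and 0.19 for HF over Control. Both breakdown genes were thus slightly below HF with iron, by less than the spread between probe sets.

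Macrophages of the liver clear red cells and make heme oxygenase, and their markers were read in the same pools. Of 12 kept Kupffer cell and macrophage markers 12 were below 0 in HF+SFC over HF (median -0.42, 4 at least 1.5-fold lower) and 12 above 0 in HF over Control (median 0.42, 3 at least 1.5-fold higher). Their summed signal was 21501 in HF+SFC, 28656 in HF and 21682 in Control. Marco, a scavenger receptor, was 3.53-fold lower in HF+SFC than in HF, and Clec4f, a Kupffer cell lectin, 1.22-fold lower. The others past 1.5-fold there were Cd68, C1qc and Lyz2, at -0.60, -0.62 and -0.59, while Timd4 was nearest to 0 at -0.06. Against Control, HF stood at 1.16 for Marco, 0.78 for Cd68 and 0.62 for Lyz2. In HF+SFC over Control 5 of the 12 were above 0, Vsig4 the highest at 0.23, and Marco was 1.58-fold lower by its brightest probe set (-0.66, against 0.09 by its other). Their part in the Hmox1 and Blvrb values was not tested.

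**Figure D2:**
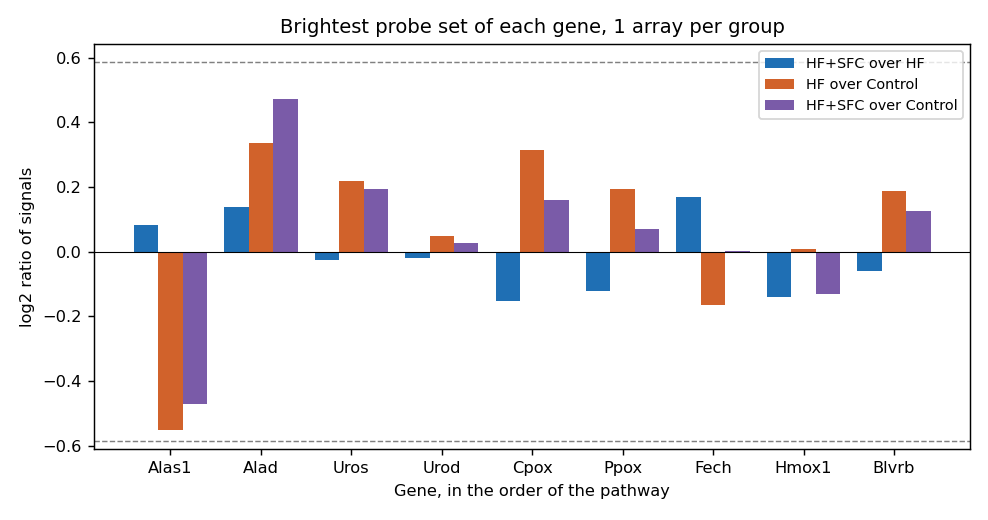
Log2 ratio of signals (y axis) of the brightest probe set of each gene (x axis) for HF+SFC over HF, HF over Control and HF+SFC over Control, from 1 array per group; dashed lines mark 1.5-fold. No bar crosses the dashed lines, and Alas1 at -0.55 comes nearest.

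The members' probe sets agreed in sign in only some genes. Of the 5 members with several kept probe sets, all of them had one sign in 2 members for HF+SFC over HF (Alas1 and Fech), in 2 for HF over Control (Alas1 and Alad) and in 2 for HF+SFC over Control (Alas1 and Fech). Of the 16 kept probe sets 0 were beyond 1.5-fold in HF+SFC over HF, against 9.77% of all kept probe sets of 1 gene. Of the same 16, 2 were beyond it in HF over Control, against 17.7%, and these were the second Alas1 and the dimmest Cpox probe set. For HF+SFC over Control it was 1 of 16, the second Alas1 probe set, against 17.1%.

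The 4 probe sets below the kept level behaved otherwise. Of these, 3 of 4 in HF+SFC over HF were beyond 1.5-fold, against 64.4% of all 15151 such probe sets, and in HF over Control 4 of 4, against 66.1%. Apart from both Ppox probe sets and that of Fech, the fourth was one of Uros, at 12.2 in HF+SFC, 18.5 in HF and 50.4 in Control. In HF over Control the Uros probe set was lower and both Ppox probe sets were higher.

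**Figure D3:**
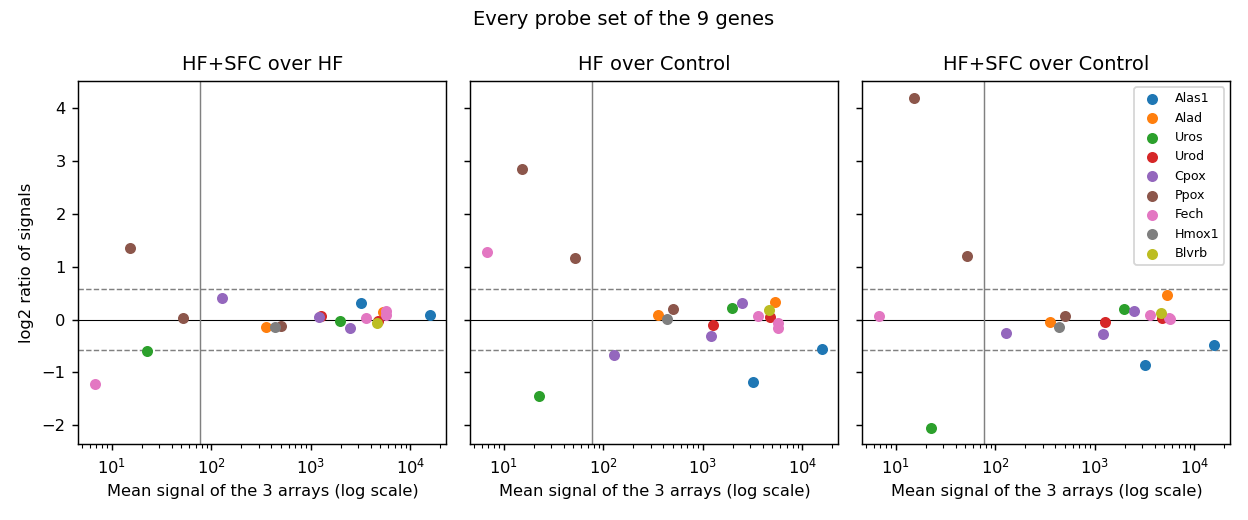
The 20 probe sets of the 9 genes, coloured by gene, with their geometric mean signal over 3 arrays (x axis, log scale) and their log2 ratio of signals (y axis) in each comparison; 1.5-fold is dashed and a vertical line stands at 76.9, the kept level. The probe sets left of the line scatter widely, up to 4.20 for Ppox in HF+SFC over Control, while right of it Alas1 lies lowest in HF over Control.

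Further enzymes of the pathway also stayed within 1.5-fold, and 3 of 4 listed were read. Blvra, the main biliverdin reductase, had a signal of 901 in HF+SFC, 836 in HF and 635 in Control, and was 1.08-fold above HF with iron and 1.32-fold above Control in HF. Hmox2, the constitutive heme oxygenase, had 2686 in HF+SFC, 2565 in HF and 2311 in Control. Alas2, the erythroid counterpart of Alas1, had 2031 in HF+SFC, 2411 in HF and 2097 in Control. Of these 0 of 3 passed 1.5-fold in either direction in any of the 3 comparisons. Unlike Alas1, Alas2 was highest in HF.

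Of 10 erythroid markers, Alas2 among them, 2 were kept. The other was Klf1, an erythroid transcription factor, at 361 in HF+SFC, 234 in HF and 217 in Control, 1.54-fold higher in HF+SFC than in HF. Hba-a1, a globin gene, was dim in the probe set that names it alone, at 14.7 in HF+SFC, 18.1 in HF and 52.1 in Control. What blood in the tissue added to the heme enzymes was not tested.

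Heme a, the form in cytochrome c oxidase, is made by Cox10 and Cox15. Cox10, which builds heme o on the way to heme a, had a signal of 447 in HF+SFC, 489 in HF and 398 in Control. Its 3 kept probe sets lay between -0.13 and 0.58 in HF+SFC over HF and between -0.68 and 0.30 in HF over Control, so that no direction can be given. Cox15 had 1098 in HF+SFC, 932 in HF and 812 in Control and was 1.18-fold above HF with iron. Its 4 probe sets lay between -0.24 and 0.26 in that comparison. Neither gene passed 1.5-fold in its brightest probe set in any of the 3 comparisons.

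Genes that bring substrates and iron into the mitochondrion or handle the enzymes there were read in 8 of 10, and 0 were beyond 1.5-fold in HF+SFC over HF by the brightest probe sets (median 0.08). The highest was Abcb10, an inner-membrane transporter that erythroid heme synthesis needs, 1.23-fold above HF, with its 2 kept probe sets at 0.25 and 0.30. The lowest was Slc25a37, the mitochondrial iron importer mitoferrin, at -0.17, which was the highest in HF over Control at 0.35. Tmem14c, a porphyrinogen transporter, was highest in HF+SFC over Control at 0.42. Compared with Control, 1 of 8 was lower in HF and 0 higher (median 0.03). This was Clpx, the unfoldase of the mitochondrial ClpXP protease, which in mammals acts on ALAS enzymes, at 5098 in HF+SFC, 5242 in HF and 9295 in Control. It was 1.77-fold lower in HF than in Control, its 2 probe sets at -0.83 and -0.71. Both probe sets of Clpx, like those of Alas1, were lower in both high-fat pools than in Control. With iron they differed from Alas1 in sign, at -0.04 and -0.60 for Clpx in HF+SFC over HF, against 0.08 and 0.32 for Alas1.

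Of 14 genes of heme and bilirubin transport and scavenging 12 were read, and 0 were beyond 1.5-fold in HF+SFC over HF (median 0.04) or in HF over Control (median 0.10). Hemopexin (Hpx), the plasma protein that carries free heme to the liver, had a signal of 41773 in HF+SFC, 42368 in HF and 45139 in Control. The highest was Flvcr2, a membrane transporter of the heme exporter family, at 214 in HF+SFC, 169 in HF and 129 in Control. It was 1.66-fold higher in HF+SFC than in Control, the only gene of this list beyond 1.5-fold there. The lowest in HF+SFC over HF was Flvcr1, the heme exporter, at -0.21, and in HF over Control Lrp1, the hemopexin receptor, at -0.22 (0.04 by its other probe set).

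Regulators of these enzymes were read in 15 of 15, with 0 beyond 1.5-fold in HF+SFC over HF (median -0.04), from Mafk, a small Maf partner of NRF2, at -0.28 to Nrf1 at 0.23, whose 4 probe sets ran from -0.26 to 0.55. In HF over Control 1 was higher and 0 lower (median 0.19). This was the clock gene Per2, 3.21-fold higher, with 0.27 as the lowest of its 3 probe sets on the log2 scale. Ppargc1a, the coactivator that raises Alas1 on fasting in mouse, was 1.38-fold above Control in HF by its brightest probe set, and the log2 ratios of its 5 kept probe sets ran from -0.01 to 0.84. Its part in the Alas1 values was not tested. The xenobiotic receptors that induce Alas1 with P450 genes went opposite ways in HF over Control, Nr1i3 (CAR) at 0.54 and Nr1i2 (PXR) at -0.39. Bach1, the heme-sensing repressor of Hmox1, stood at 0.09 and -0.11 in HF+SFC over HF and in HF over Control by its brightest probe set (-0.51 and 0.33 by the other), and Nfe2l2, which encodes NRF2, at -0.12 and 0.06 (0.23 and -0.13 by the other).

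Of the NRF2 targets besides Hmox1 9 of 11 were kept, and 0 were beyond 1.5-fold in HF+SFC over HF (median -0.08, 7 below 0), from Gclc of glutathione synthesis at -0.19 to Gsr, glutathione reductase, at 0.03 (-0.03 by its other probe set). Of these, 2 were higher and 0 lower in HF over Control (median 0.20). Pgd, of the pentose phosphate pathway, was 1.91-fold higher, with its 4 probe sets between 0.93 and 1.18, and Srxn1, sulfiredoxin, was 1.56-fold higher by its brightest probe set, with its 4 probe sets between 0.17 and 0.80. Without the probe sets of ambiguous suffix 1 target was higher in place of 2. Me1, malic enzyme, was lowest at -0.49.

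Among the heme proteins that use the product, 16 of 18 were kept. In HF+SFC over HF 1 was higher and 0 lower (median 0.03). It was Cyp51, of cholesterol synthesis, at 2418 in HF+SFC, 1278 in HF and 888 in Control. Compared with Control, 2 were higher and 1 lower in HF (median -0.05). Cyp7a1, which sets the rate of bile acid production from cholesterol, was 6.19-fold higher, and Cyp4a14, a PPARα target of fatty acid hydroxylation, was 2.28-fold lower. The other gene counted as higher was the CAR target Cyp2b10, at 207 in HF+SFC, 249 in HF and 48.5 in Control. Its Control signal lies below the kept level, so that no fold is given. The abundant P450 gene Cyp2e1 stood at -0.06 and catalase (Cat) at -0.12. Heme protein genes ran from -1.19 for Cyp4a14 to 2.63 for Cyp7a1 in HF over Control. Their list is longer than that of the 9 enzymes and was chosen with earlier results known. The ranges of both lists are therefore not compared. In HF+SFC over Control Cyp51 was 2.72-fold and Cyp7a1 9.19-fold higher and Cyp4a14 1.84-fold lower.

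**Figure D4:**
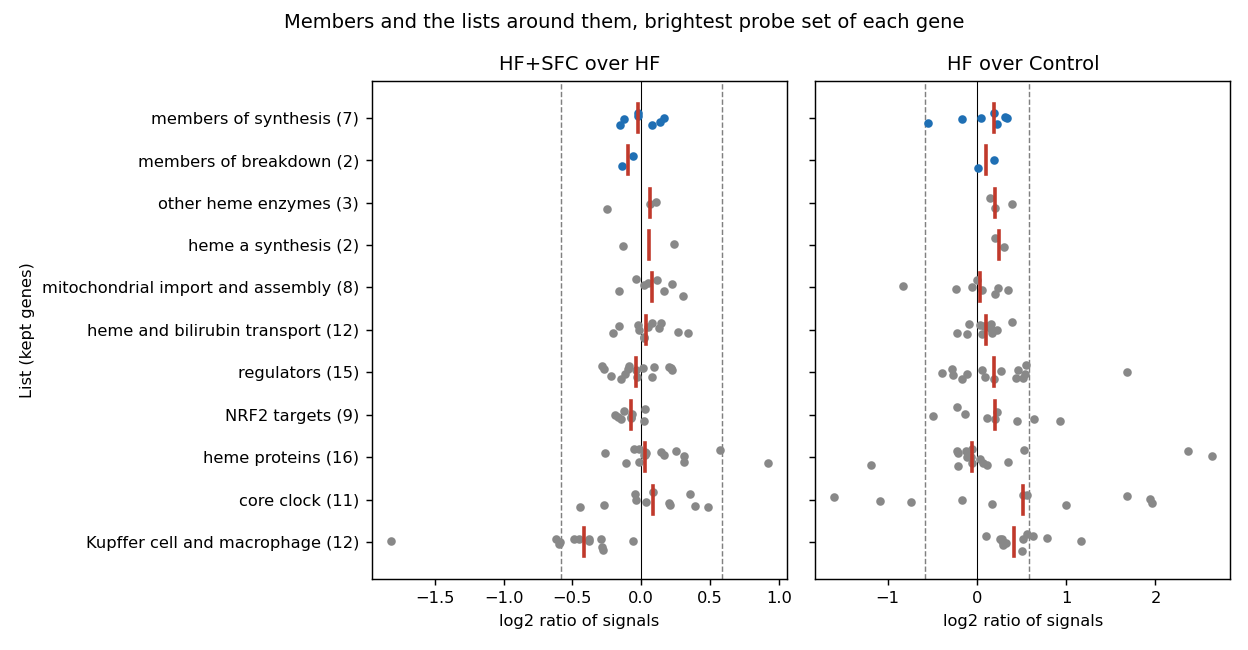
Log2 ratio of signals (x axis) of each kept gene (points; the 9 members in blue) in the members and the lists around them (y axis, number of kept genes in parentheses), for HF+SFC over HF and HF over Control; red bars are medians and dashed lines 1.5-fold. The synthesis members run from -0.15 to 0.17 with iron and from -0.55 to 0.34 in HF over Control.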

How the data were processed

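Total RNA of frozen liver was extracted with the RNeasy Mini Kit, and biotin-labelled cRNA was hybridised to an Affymetrix whole-genome mouse array. The deposited values are MAS5 signals, intensities on a linear scale, which the authors had scaled so that the 2% trimmed mean was 500.004 on each of the 3 arrays. Differences in total signal between arrays had thus been removed. Of MAS5, the version is not given in the sources used here. Median signals were 80.4, 87.3 and 81.7 in HF+SFC, HF and Control. The number of arrays limits the precision, and signals of dim probe sets are noisy.

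Probe sets were named by the platform annotation (34945 of 45037 named 1 gene, 932 several, and 9160 were unnamed here). The 20 probe sets of the members matched a RefSeq gene table by identifier, and no probe set of several genes named a member. Some listed genes were not analysed here. Log2 ratios of the deposited signals were computed in Python 3.11.15 (numpy 2.4.6, pandas 2.3.3, statsmodels 0.14.6). The steps were tested on simulated data.

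Members and lists were chosen with earlier results of these data known. All 9 members were described. Of the other lists, genes at or beyond 1.5-fold, the lowest and highest, and those the study had measured were named. Alb, Hpx, Bach1, Nfe2l2, Cyp2e1, Cat, Ppargc1a and Nr1i3 were added for their known roles, with their values already seen.

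The alternatives were quantile, median and lowess (fraction 0.3) scaling, no filter, the upper 25% of signal, a floor at the median of the array, a pseudocount of 16, the median over probe sets, leaving out probe sets with an ambiguous suffix, and a 2-fold threshold.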

Additional observations from a re-analysis of the deposited data

How the results depend on the processing

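No paired analysis was possible because each group had 1 array. The count of members beyond 1.5-fold was 0 in each of the 3 comparisons under every alternative except the median over the kept probe sets, which gave 1, Alas1, for HF over Control and 1, Alas1, for HF+SFC over Control. That alternative also put the median log2 ratio of the members for HF over Control at 0.0079, against 0.19 by the brightest probe sets, and Cpox at -0.32, against 0.31. The shift of Cpox is larger than the spread between probe sets of one gene (SD 0.35). That of the median is larger than this spread once scaled to a median of 9 genes. Of 27 values of the members’ median under the alternatives 0 turned sign. Of 243 log2 ratios of single members, 15 changed sign, all of them of Urod, Cpox, Alad, Hmox1 or Fech. Of 420 counts in the lists around the members, 18 moved by more than 1.5 times. With 1 array per group no alternative replaces a replicate, and ratios of signals below the kept level were not read as changes.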

Other observations

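The hepatocyte marker Hnf4a, a transcription factor of liver identity, had a signal of 11107 in HF+SFC, 10144 in HF and 15524 in Control. All 4 of its probe sets were below 0 in HF over Control, between -0.61 and -0.24, and the brightest was 1.53-fold lower. Hnf4a was the only one of 8 hepatocyte markers beyond 1.5-fold in that comparison, Fah was the highest at 0.07, and Pck1 the lowest in HF+SFC over HF at -0.02. The other clock genes lower in HF than in Control were Clock (2.13-fold) and Cry1 (1.67-fold), and those higher were Per2 and Tef (1.99-fold). The signals of Alas1, Clpx, Hnf4a, Clock and Cry1 shared the order in which Control was above both high-fat pools, an observation made after the values were seen and not tested. Clpx, Hnf4a, Clock and Cry1 were named for being lower in HF than in Control, which fixed that part of the order. Other listed genes, such as Cyp4a14 and Me1, had this order too, and its share over all kept genes was not counted.

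Among 6 stellate cell markers 4 were at least 1.5-fold lower in HF+SFC than in HF by their brightest probe sets. They were Des (-1.57), Vim (-1.03), Acta2 (-0.96) and Col3a1 (-0.76, against -0.13 by its other), with Lrat nearest to 0 at -0.28. In HF over Control 5 were higher, Col3a1 (1.70), Vim (1.24), Des (1.13), Acta2 (0.88) and Lrat (0.62, against 0.41 by its other). Col1a1 was the lowest at 0.46. Of 5 endothelial markers 1, Lyve1, passed 1.5-fold, at -0.65 in HF+SFC over HF (-0.29 by its other probe set) and 1.35 in HF over Control. Kdr was highest in HF+SFC over HF, at -0.0023, and Clec4g lowest in HF over Control, at -0.13.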
